A study of Mus musculus with 16 samples.

Results

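The genes described here are 31 genes that present antigen to T cells, 20 of the major histocompatibility complex (MHC) class I pathway and 11 of the class II pathway, taken by symbol from a list. All 31 were found among the 47311 genes to which the deposited transcripts could be matched, and all 31 were among the 16154 genes that passed the filter on low counts. They were measured in bulk RNA of 16 mammary tumours, each from its own animal, 8 under anti-PD-1 and 8 under IgG2a. The tumours grew from E0771-luciferase cells, a mouse mammary cancer line with a luciferase reporter, of which 250000 in 25% matrigel were placed in mammary gland 4 of female C57BL/6J mice. Between 8 and 26 weeks of age all mice had been fed a chow in which fat supplied 60% of the calories, so both groups are obese and no lean group is used here. All tumours come from this 1 cell line, and nothing in the labels says whether animals shared a cage or a day of injection. From day 3 after the cells were placed, and every 3 days until day 21, one group received 200 ug of an antibody that blocks PD-1, an inhibitory receptor of T cells, and the other received 200 ug of an IgG2a isotype control.

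Class I molecules consist of a heavy chain and beta-2 microglobulin and are carried by nearly all nucleated cells. They show peptides cut by the proteasome, and moved into the endoplasmic reticulum by the TAP transporter, to CD8 T cells. Class II molecules are carried mainly by dendritic cells, B cells and macrophages and show peptides made in lysosomes to CD4 T cells. NLRC5 and CIITA are the master regulators of class I and class II transcription, and interferon gamma, a cytokine of T and NK cells, induces both pathways. In a tumour, cancer cells and infiltrating cells all add to the class I transcripts, while class II transcripts come mostly from the immune infiltrate.

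Libraries held 59036535 to 82591064 estimated reads. Levels are given as CPM, read counts scaled to library size, or as TPM, which also corrects for transcript length. A cell index is the mean log2 CPM of a list of marker genes. In earlier results of these data 3 tumours stood apart, and the main results are given with and without them. IgG2a replicate 7 had the highest macrophage (8.65), erythroid (11.58), endothelial (7.21), epithelial (5.63) and adipocyte index but a T cell index of 0.72. Its adipocyte markers summed to 9224 CPM, against 37.8 to 175 CPM under anti-PD-1. The other 15 tumours ranged from 5.89 to 7.35 in the macrophage index and from -1.04 to 3.33 in the epithelial index, and the epithelial markers Krt14 and Krt19 were at 0 in some tumours. IgG2a replicate 3 had a skeletal muscle index of 11.54, against -2.20 to 4.18 in the others. The library of anti-PD-1 replicate 6 showed 38993 transcripts above 0, fewer than the 47997 to 55476 of the rest.

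Class I transcripts were abundant in every tumour. In TPM, B2m, the light chain shared by class I molecules, had a median of 3508 and a range of 2971 to 4749. H2-D1 (2158, 1274 to 2344) and H2-K1 (949.7, 718 to 1848) encode the classical heavy chains of this strain. B2m lay above H2-D1 in TPM in every tumour, and the TPM of H2-D1 was 1.19 to 3.04 times that of H2-K1. The non-classical heavy chains were lower, with median TPM of 224 for H2-T22, 97.3 for H2-T23, 59.9 for H2-Q7, 49.1 for H2-Q4, 34.7 for H2-Q6 and 30.5 for H2-M3. The ranges of H2-Q4, H2-Q6, H2-Q7 and H2-M3 overlapped. The lowest TPM of B2m, H2-D1 and H2-K1 was that of anti-PD-1 replicate 6, whose B2m CPM was the highest of all, so the 2 scales disagree on these genes in that tumour. Of the regulators, Nlrc5 had a median of 45.7 TPM (25.1 to 57.5) and Ciita one of 1.26 TPM (0.507 to 5.02), so the lowest Nlrc5 tumour lay above the highest Ciita tumour.

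Class II transcripts were led by Cd74, the invariant chain that fills the class II groove until peptide is loaded, with a median of 719.8 TPM and a range of 137 to 1375. The class II chains H2-Ab1 (288 TPM, 49.1 to 552), H2-Aa (252 TPM, 45.9 to 563) and H2-Eb1 (199 TPM, 38.7 to 457) followed, with ranges that overlapped. The peptide exchange factor H2-DM was represented by H2-DMb1 at a median of 51.6 TPM, H2-DMa at 36.3 TPM and H2-DMb2 at 1.74 TPM. H2-Oa and H2-Ob, the subunits of the H2-O inhibitor of H2-DM, had medians of 0.701 and 0.400 TPM and were the lowest of the 31 genes. Ifi30, a lysosomal thiol reductase, had a median of 185 TPM.

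The classes differed most in how far tumours lay apart. The SD of log2 CPM over 16 tumours had a median of 0.87 over the 11 class II genes and 0.38 over the 20 class I genes, beside 0.45 over all 16154 genes tested. It was above that all-gene median for 10 of 11 class II genes, all but Ifi30 at 0.40, and for 7 of 20 class I genes. The class II chains H2-Ab1, H2-Eb1 (1.18) and H2-Aa (1.16) and the invariant chain Cd74 (1.18) had an SD over 1. The least variable of the 31 was the classical class I heavy chain H2-D1 at 0.13, at percentile 2.19 of the genes tested. Summed over the 8 heavy chains, class I TPM ran from 2440.4 to 4943, a 2.03-fold range, while the sum of H2-Aa, H2-Ab1 and H2-Eb1 ran from 134 to 1523, an 11.4-fold range. In the 13 tumours without those that stood apart, the median SD was 0.84 for class II, 0.25 for class I and 0.27 for all genes, and it exceeded the all-gene median for 11 of 11 and 8 of 20. In bulk RNA, fewer cells of a type and less RNA per cell cannot be told apart.

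**Figure D1:**
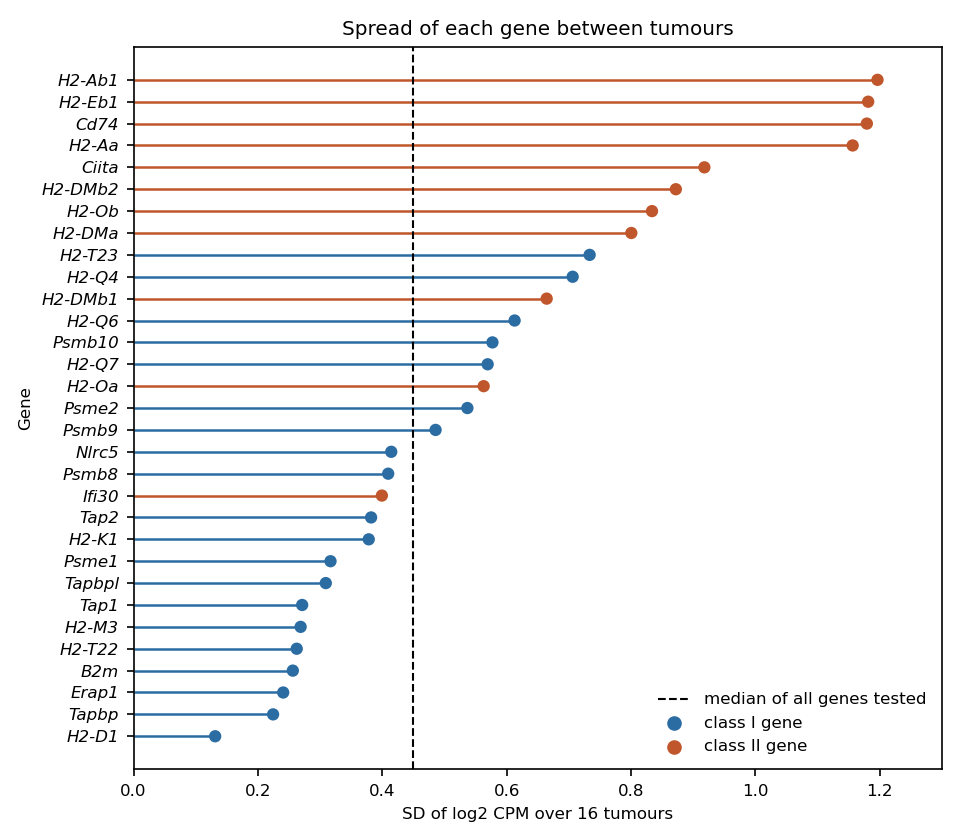
SD of log2 CPM over 16 tumours (x axis) for each of the 31 genes (y axis), with class I genes in blue and class II genes in orange; the dashed line is the median of all genes tested, 0.45. H2-D1 at 0.13 is lowest, and H2-Aa, H2-Ab1, H2-Eb1 and Cd74 lie beyond 1.

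Within class I the spread was uneven. H2-T23 (SD 0.73), H2-Q4 (0.71), H2-Q6 (0.61) and H2-Q7 (0.57), non-classical heavy chains, varied more than H2-K1 (0.38), H2-M3 (0.27), H2-T22 (0.26) and B2m (0.26). Among the genes that make and move peptides, Psmb10 (0.58), Psme2 (0.54) and Psmb9 (0.49) lay above the all-gene median, and Tap1 (0.27), Erap1 (0.24), an aminopeptidase that trims peptides, and Tapbp (0.22), the loading chaperone tapasin, lay well below it. Without the 3 tumours that stood apart, the all-gene median was 0.27, with Psmb10 at 0.37, Psmb9 at 0.29 and Psme2 at 0.28, while H2-T23 (0.59), H2-Q4 (0.58), H2-Q6 (0.58) and H2-Q7 (0.56) stayed the most variable of class I. Psmb10, Psme2, Psmb8, Psmb9, Tap2 and Psme1 were highest in anti-PD-1 replicate 6, at 1.87, 1.75, 1.38, 1.36, 1.11 and 1.00 log2 units above their medians. Nlrc5 was lowest there, 1.04 below its median, with Erap1 0.75 and Tapbpl 0.69 below theirs. A transcript of 6945 bases held most Nlrc5 reads over all tumours pooled. In anti-PD-1 replicate 6, a transcript of 1727 bases with a retained intron held 84.2% of them. The transcript with the most pooled reads had 4014 bases for Erap1, against 815 for Psmb8 and 962 for Psme2. Tap2, high in that tumour, had 2561 bases, and Tapbpl, low there, had 2352. The minimum RNA integrity number was 5 for all tumours. The library of anti-PD-1 replicate 6 showed the fewest transcripts. The part of the library, of transcript length and of RNA quality in these values was not tested.

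H2-Aa, a class II chain, and Cd74, the invariant chain, were high and low in the same tumours. H2-Aa ran from 31.8 CPM in IgG2a replicate 4 to 451 CPM in IgG2a replicate 7, and Cd74 from 109 CPM in IgG2a replicate 4 to 1374 CPM in anti-PD-1 replicate 6. The same 6 tumours, 3 under each treatment, held the lowest values of both genes, at 31.8 to 75.9 CPM of H2-Aa and 109 to 230.0 CPM of Cd74. Under IgG2a these were replicates 4, 5 and 6, and under anti-PD-1 replicates 2, 3 and 4. In the other 10 tumours H2-Aa was at 129 to 451 CPM and Cd74 at 489 to 1374 CPM. So each treatment had tumours on both sides of the gap in class II level, a division made after the values were seen. The TPM ratio of Cd74 to H2-Aa stayed between 2.44 and 3.33 over all 16 tumours while each gene moved over 10-fold. Other class II genes departed from this in single tumours. In anti-PD-1 replicate 6 H2-Oa was 0.81 and Ciita 0.57 log2 units below their medians while Cd74 was 1.13 above its own, and in IgG2a replicate 3 H2-Oa was 1.05 above and H2-Aa 0.57 below. As a mean over each class, class II spanned 2.51 log2 units between tumours and class I spanned 0.98.

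**Figure D2:**
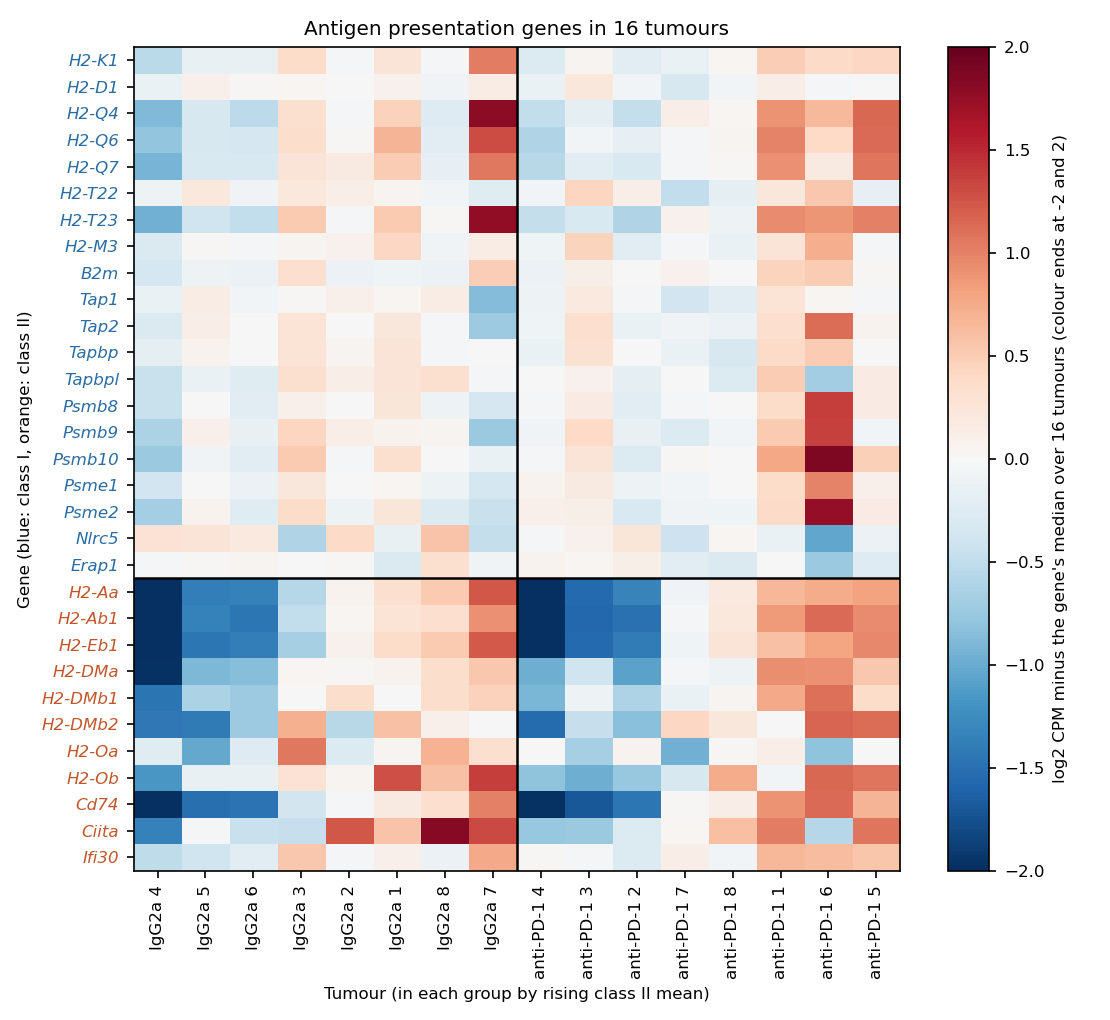
Colour shows log2 CPM of each gene (rows) in each tumour (columns) minus the gene's median over 16 tumours, with IgG2a tumours at left and anti-PD-1 tumours at right, each ordered by the class II mean; the line separates 20 class I from 11 class II genes. The class II rows turn from blue to red across both groups, H2-D1 stays near 0, and H2-Q4 and H2-T23 reach 1.79 and 1.77 in IgG2a replicate 7.

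**Figure D3:**
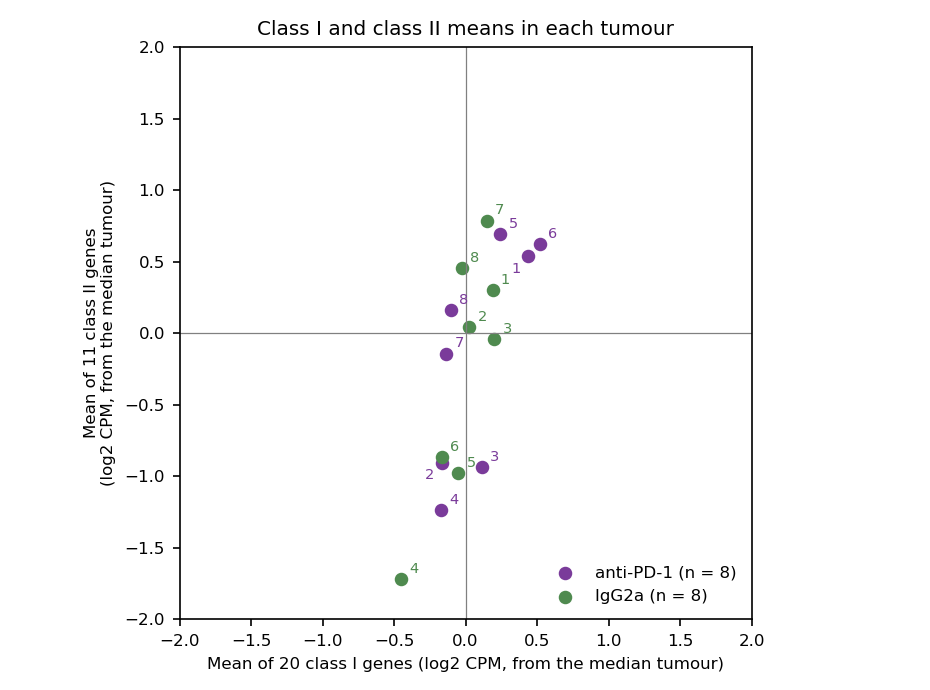
Mean log2 CPM of 20 class I genes (x axis) against 11 class II genes (y axis), each from its median tumour, one point per tumour with its replicate number, coloured by treatment; both axes have the same scale. The 6 lowest points lie between -1.72 and -0.87 on the class II axis, 3 of each treatment, and the class I axis spans -0.45 to 0.52.

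The classes were also compared gene by gene over 16 tumours, in 8 pairs set as class I against class II, regulator against target, or partners within a class, with p-values adjusted over the 8. Log2 CPM of H2-Aa and Cd74, partners in the class II molecule, had a Pearson r of 0.99 and a Spearman rho of 0.98 (permutation p = 1e-05 for each, the smallest that 100000 resamples can give, adjusted p = 8e-05). H2-K1 and B2m, partners in class I, had r = 0.83 (permutation p = 3e-05, adjusted p = 0.00012) and rho = 0.75 (permutation p = 0.00143). Without the 2 tumours farthest from the median of the first gene, r was 0.98 and 0.72, and in the 13 tumours it was 0.99 and 0.73. These 2 pairs of partners thus moved together; H2-D1 was not paired with B2m.

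Across classes, H2-K1 with H2-Aa had r = 0.79 (permutation p = 0.00015, adjusted p = 0.0004) and rho = 0.83 (permutation p = 0.00022), and r was 0.70 without the 2 farthest tumours. B2m with Cd74 had r = 0.66 (permutation p = 0.00547, adjusted p = 0.00875) and rho = 0.56 (permutation p = 0.0255), and r was 0.51 without the 2 farthest. Tumours with more class II transcript thus tended to have more H2-K1 and B2m, over a smaller range. Since class II levels lie on both sides of a gap, r was also taken on each side: for H2-K1 with H2-Aa it was 0.80 in the 6 low tumours and 0.63 in the other 10, and for B2m with Cd74 it was 0.72 and 0.59. In the 13 tumours without those that stood apart the 2 relations had r = 0.81 and 0.54. Within anti-PD-1 and within IgG2a, r of H2-K1 with H2-Aa was 0.82 and 0.80. In the 6 tumours with the lowest animal numbers and the other 10 it was 0.63 and 0.84, and for B2m with Cd74 it was 0.30 and 0.79.

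The regulators differed in how they went with their targets. Ciita with H2-Aa had r = 0.80 (permutation p = 0.00036, adjusted p = 0.00072) and rho = 0.75 (permutation p = 0.0015), with r = 0.75 without the 2 farthest tumours and 0.92 in the 13 without those that stood apart. Within the 6 low and the 10 high class II tumours it was 0.91 and 0.47. Nlrc5 with H2-K1, a target of NLRC5, had r = -0.60 (permutation p = 0.0144, adjusted p = 0.0192) and rho = -0.63 (permutation p = 0.0103), with r = -0.61 without the 2 farthest. This negative relation was not seen on log2(TPM + 1), where r was 0.09, and r was -0.41 in the 13 tumours. Nlrc5 with Ciita had r = 0.17 (permutation p = 0.524, adjusted p = 0.524) and rho = 0.09 (permutation p = 0.737), with -0.08 without the 2 farthest. It was 0.81 in the 10 tumours above the gap in class II and 0.11 in the 6 below it, and 0.46 over all 16 on log2(TPM + 1). Whether the regulators move together is thus not settled by these values.

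Tap1 and Psmb9, neighbours on chromosome 17 for the peptide transporter and an immunoproteasome subunit, had r = 0.63 (permutation p = 0.0216, adjusted p = 0.0247) and rho = 0.82 (permutation p = 0.00017), with r = 0.48 without the 2 farthest, 0.76 in the 13 tumours and 0.03 on log2(TPM + 1). In the 6 lowest-numbered animals and the other 10, r was -0.78 and -0.58 for Nlrc5 with H2-K1, 0.87 and 0.78 for Ciita with H2-Aa, and 0.76 and 0.57 for Tap1 with Psmb9. None of these pairs changed sign between the animal ranges.

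Of the 31 genes, 21 lie on chromosome 17, where the mouse MHC is. The RefSeq promoter table (GRCm38.p6, 250 bases before to 50 after a start) held 25 of the 31, 17 of class I and 8 of class II. Shown here are promoters of genes whose transcripts rose with the macrophage index (H2-K1, H2-Q6, H2-Q7, B2m, H2-Aa and H2-Eb1), and of H2-T22, a heavy chain that did not. Each runs from -180 to -11 before the start site (H2-Eb1 from -146, since an exon of a neighbouring gene is annotated upstream of that), 5′ to 3′ on the gene's strand. Capitals mark matches, on either strand, to 4 motifs: the Y box ATTGG, the X1 box ACNGATG, an NF-kB type site GGGNANTCC and the interferon-stimulated response element (ISRE) GAAANNGAA.
H2-K1, chr17:34000358-34000527, minus strand: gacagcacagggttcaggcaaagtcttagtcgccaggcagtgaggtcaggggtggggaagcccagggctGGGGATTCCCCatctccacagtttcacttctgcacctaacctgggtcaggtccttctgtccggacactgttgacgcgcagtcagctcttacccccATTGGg
H2-Q6, chr17:35424670-35424839, plus strand: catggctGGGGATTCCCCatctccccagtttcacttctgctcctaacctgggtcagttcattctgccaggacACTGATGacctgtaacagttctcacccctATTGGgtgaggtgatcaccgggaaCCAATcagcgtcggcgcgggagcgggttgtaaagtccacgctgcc
H2-Q7, chr17:35438975-35439144, plus strand: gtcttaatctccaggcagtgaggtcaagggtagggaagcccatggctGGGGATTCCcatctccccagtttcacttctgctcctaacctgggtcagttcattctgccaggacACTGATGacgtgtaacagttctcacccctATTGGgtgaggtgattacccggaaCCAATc
H2-T22, chr17:36042753-36042922, minus strand: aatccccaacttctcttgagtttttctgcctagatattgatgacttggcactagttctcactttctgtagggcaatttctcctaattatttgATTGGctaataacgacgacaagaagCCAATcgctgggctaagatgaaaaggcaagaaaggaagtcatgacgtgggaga
B2m, chr2:122147507-122147676, plus strand: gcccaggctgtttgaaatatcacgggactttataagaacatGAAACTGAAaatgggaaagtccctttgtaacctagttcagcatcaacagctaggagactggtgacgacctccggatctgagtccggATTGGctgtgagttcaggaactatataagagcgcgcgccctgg
H2-Aa, chr17:34287834-34288003, minus strand: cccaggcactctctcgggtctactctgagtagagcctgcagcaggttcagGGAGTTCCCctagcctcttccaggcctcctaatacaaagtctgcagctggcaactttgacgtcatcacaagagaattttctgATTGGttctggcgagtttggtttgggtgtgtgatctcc
H2-Eb1, chr17:34305721-34305856, plus strand: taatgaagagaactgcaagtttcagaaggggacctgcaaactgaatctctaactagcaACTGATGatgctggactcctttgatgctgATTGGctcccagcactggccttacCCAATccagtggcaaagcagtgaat

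The Y box, bound by NF-Y, and the X1 box, bound by the RFX complex, form with other elements the SXY module through which NLRC5 and CIITA act. In the full promoters the Y box letters were present in 12 of 17 class I and 7 of 8 class II genes, and in 37.4% of all 32851 promoters. The X1 letters were in 7 of 17 and 5 of 8, and in 9.85% of all promoters. An X1 match that starts 28 to 31 bases before a Y match on the same strand, a spacing chosen after the positions were seen, occurred in 8 of the 25: H2-D1, H2-M3, H2-Q4, H2-Q6, H2-Q7, H2-DMb1, H2-DMb2 and H2-Eb1. It occurred in 17 of all 32851 promoters, or 0.0517%, these 8 genes included. It is visible in the windows of H2-Q6, H2-Q7 and H2-Eb1, and the H2-K1, H2-T22, B2m and H2-Aa windows hold a Y match without it. The search took exact letters, so a box that differs in any fixed letter was not counted. A promoter without a match may therefore still hold the module. The ISRE letters were in 5 of 17 class I genes (B2m, Erap1, H2-T22, H2-T23 and Psme1) and 0 of 8 class II genes, against 8.56% of all promoters; that of H2-T22 lies upstream of the window shown. The NF-kB type letters were in 5 of 17 (H2-D1, H2-K1, H2-Q4, H2-Q6 and H2-Q7) and 2 of 8 (H2-Aa and Ifi30), against 3.68%. The motif pair did not divide the genes by their spread, since H2-D1 (SD 0.13), H2-Q4 (0.71) and H2-Eb1 (1.18) all held it.

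Which cells the 2 classes followed was asked by the slope of each gene on a cell index, at a given treatment, in edgeR fits over all genes. With the macrophage index, the level of 10 macrophage markers, 15 of the 31 genes rose at an adjusted p under 0.05 and 0 fell. By edgeR's quasi-likelihood test with Benjamini-Hochberg adjustment, 39.7% of all genes tested were called, 22.4% rising. The 15 were 9 of 11 class II genes and 6 of 20 class I genes, and the median slope was 0.87 for class II and 0.04 for class I. Cd74 (1.41 ± 0.32, SE, adjusted p = 0.00251), H2-Eb1 (1.41 ± 0.31) and H2-Aa (1.39 ± 0.30) had the steepest slopes, in log2 units per unit of the index. Class I alone, at 6 of 20, was near the 22.4% of all genes that rose. These 6 genes were all parts of the molecule itself: H2-T23 (1.00 ± 0.12), H2-Q4 (0.97 ± 0.11), H2-Q6, H2-Q7, H2-K1 (0.49 ± 0.08) and B2m (0.26 ± 0.08). H2-D1, the other classical heavy chain, had a slope of 0.04 ± 0.06. None of the 11 genes of peptide supply, loading and regulation passed, with Tap1 at -0.22 ± 0.10 (adjusted p = 0.0908) and Nlrc5 at -0.29 ± 0.13 (adjusted p = 0.101).

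Without the 3 tumours that stood apart, 16 of 31 genes rose with the macrophage index, against 17.6% of all genes called in either direction and 1509 of 16342 rising. Cd74 then had a slope of 2.27 ± 0.34 and H2-K1 one of 0.44 ± 0.11. Psmb10, Tapbpl and H2-DMb2 were added, and B2m (0.18 ± 0.09, adjusted p = 0.173) and H2-Ob (adjusted p = 0.0531) were lost. Leaving out IgG2a replicate 7 alone took the Cd74 slope to 2.28 and that of Ciita from 0.93 to 1.58, and ended the call of B2m, while leaving out IgG2a replicate 4 ended those of Ciita and H2-DMb1. The Tap1 slope changed sign to 0.06 ± 0.11 without the 3 tumours. The markers of the list were present in all tumours, with a summed level that ran from 805 to 2129 CPM under anti-PD-1 and from 678 to 5409 CPM under IgG2a, the highest in IgG2a replicate 7.

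The dendritic cell index, of 9 markers, gave 15 of 31 genes rising, 10 of class II and 5 of class I, against 18.4% of all genes called and 14.3% rising. H2-Eb1 (1.78 ± 0.24, adjusted p = 7.29e-04) and H2-Aa (1.75 ± 0.24) were steepest, and Ciita (1.19 ± 0.28) and H2-Ob (1.28 ± 0.23) also rose. In the 13 tumours without those that stood apart 14 of 31 rose, with H2-Eb1 at 1.86 ± 0.25. Of all genes 10.1% were then called in either direction, and 1081 of 16343 rose. Without IgG2a replicate 7 alone H2-K1 and Ifi30 did not pass. The B cell index, of 8 markers tested, gave 16 of 31, 10 of class II and the same 6 of class I as the macrophage index, against 28.5% of all genes called and 18.3% rising. With those 3 tumours left out 0 of 31 passed, against 1.39% of all genes, and H2-Ob was nearest (1.24 ± 0.30, adjusted p = 0.0541). By unadjusted p under 0.05 it was 15 of 31, against 3836 of 16345 genes. H2-Oa, of the H2-O inhibitor, passed on none of the macrophage, dendritic and B cell indices. B cell markers were low, with a summed level of at most 32.7 CPM under anti-PD-1 and of at most 46.0 CPM under IgG2a, and Ms4a1 and Fcer2a were at 0 in some tumours. The macrophage, dendritic and B cell indices were all highest in IgG2a replicate 7, so their slopes share that tumour. Its erythroid, adipocyte, endothelial and epithelial indices were the highest too, and their part in the slopes was not tested.

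The relation to T cell genes turned on that same tumour. Over 16 tumours 0 of 31 genes passed with the T cell index, the mean of 16 T cell markers, and 0.0929% of all genes did. By unadjusted p under 0.05, 9 of 11 class II genes and 1 of 20 class I genes passed, against 651 of 16138 genes. The smallest adjusted p of the 31 was 0.725. The class II slopes were all positive, with a median of 0.88 against 0.19 for class I. H2-Ab1 (1.02 ± 0.40, adjusted p = 0.973) and H2-Eb1 (0.93 ± 0.39) were steepest, and H2-T22 (0.01 ± 0.12) and Nlrc5 (-0.03 ± 0.15) were flattest. DESeq2, limma-voom and a permutation test of Pearson r also called 0 of 31, against 231 of 27917, 26 of 16138 and 26 of 16138 genes.

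Without IgG2a replicate 7 alone, 13 of 31 genes rose with the T cell index, against 2.75% of all genes called in either direction and 430 of 16277 rising. These were 8 class II genes (H2-Aa, H2-Ab1, H2-Eb1, H2-DMa, H2-DMb1, H2-Ob, Cd74 and Ciita) and 5 class I heavy chains (H2-K1, H2-Q4, H2-Q6, H2-Q7 and H2-T23). Without all 3 tumours it was 16 of 31, 10 of class II (all but H2-Oa) and 6 of class I (the 5 heavy chains and Psmb10). Of all genes 11.6% were then called in either direction, and 1200 of 16336 rose. In those 13 tumours H2-Ab1 rose by 1.53 ± 0.23 (adjusted p = 0.00208), H2-Eb1 by 1.52 ± 0.21, Ciita by 1.21 ± 0.19 and H2-K1 by 0.32 ± 0.07 (adjusted p = 0.00775) per unit of the index. H2-D1 (0.04 ± 0.06), B2m (0.07 ± 0.06), Tap1 (0.06 ± 0.07) and Nlrc5 (-0.05 ± 0.08) did not pass. With the macrophage, B cell and dendritic cell indices as further covariates in all 16 tumours, 0 of 31 passed on the T cell index, and 1 of 16138 genes did. Apart from IgG2a replicate 7, the T cell and dendritic cell indices were both highest in anti-PD-1 replicate 5 (2.72 and 2.63). In IgG2a replicate 4 both were low (0.14 and 1.01). How closely the 2 indices go together was not tested, so the T cell slopes are not read as separate from the dendritic cell slopes. T cell markers had a summed level from 30.2 to 126 CPM under anti-PD-1 and from 24.2 to 73.6 CPM under IgG2a, the lowest index being in IgG2a replicate 4, which also had the lowest class II level.

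**Figure D4:**
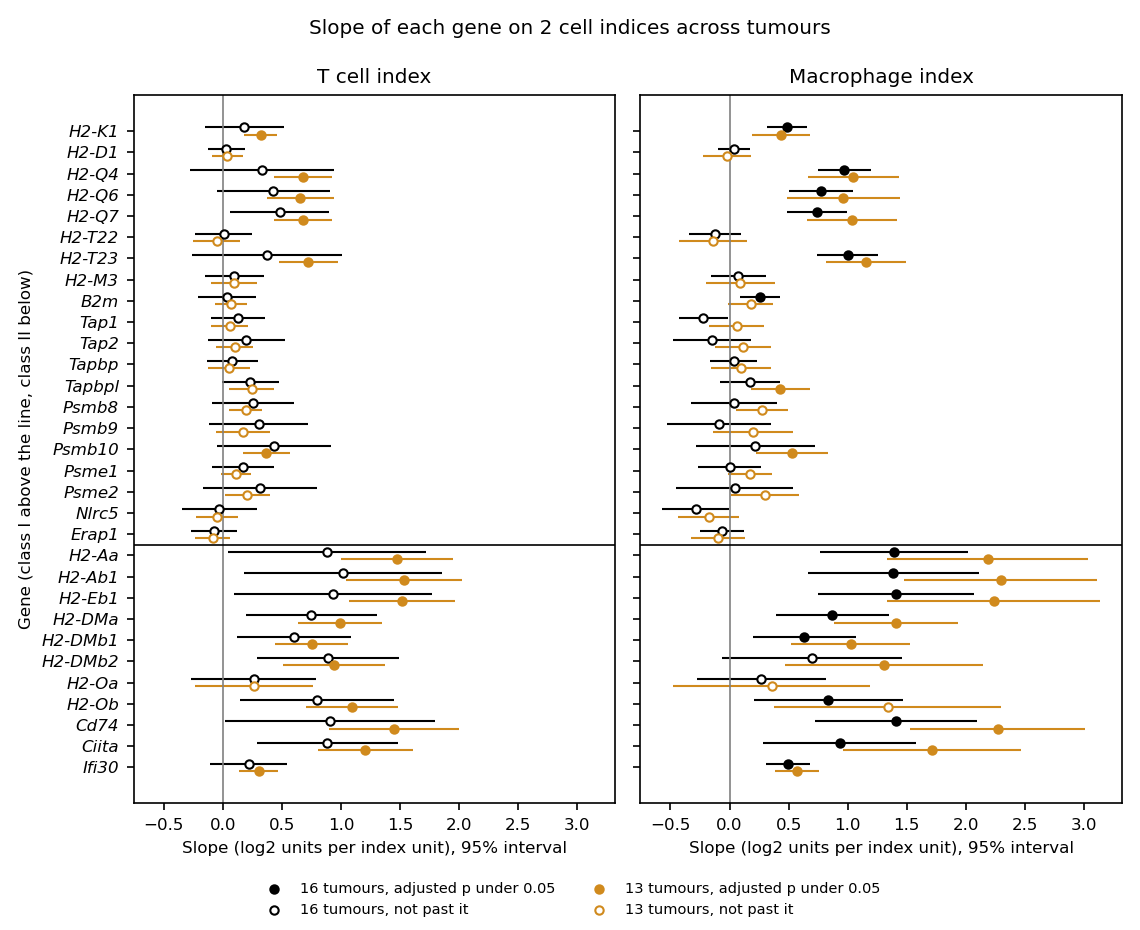
Slope of each gene on the T cell index (left) and the macrophage index (right), in log2 units per unit of the index, with 95% intervals; black is 16 tumours and orange the 13 without those that stood apart, and filled points have an adjusted p under 0.05. On the T cell index every black point is open and 16 orange points are filled.

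The slope on T cell genes was not shown to differ between the treatments. In an interaction fit 0 of 31 genes passed, and 0% of all genes tested did. At an unadjusted p under 0.05 it was also 0 of 31, against 983 of 16138 genes, 906 of them with a positive difference. Without IgG2a replicate 7 it was 338 of 16277 genes, 185 of them positive. The count also moved with other tumours, to 273 without anti-PD-1 replicate 5 and 2987 without IgG2a replicate 4. The difference, anti-PD-1 minus IgG2a, had a median of 0.29 over class II and -0.15 over class I. It was positive for 7 of 20 class I genes, but for 6 of 8 heavy chains, whose median was 0.45. The smallest p was that of H2-Q4, with a difference of 1.03 ± 0.55 (unadjusted p = 0.0809, adjusted p = 0.880).

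Interferon gamma itself, as log2 CPM of Ifng, gave 0 of 31 genes passing over 16 tumours, with 0.0248% of all genes called. At an unadjusted p under 0.05 there were 7 class I genes (Psmb9, Psmb8, Psmb10, Tap2, Psme1, Psme2 and Tap1) and 2 class II genes (H2-DMb1 and H2-DMa), against 1988 of 16153 genes. The 7 class I genes act in peptide supply and transport, with slopes from 0.16 ± 0.06 for Tap1 to 0.40 ± 0.12 for Psmb10. That pattern did not hold in the 13 tumours, where 13 of 20 class I genes had an unadjusted p under 0.05, 5 of 8 heavy chains among them, against 3162 of 16351 genes. Without IgG2a replicate 7, 1 of 31 passed (H2-DMb1), against 0.104% of all genes. In the 13 tumours 4 passed, Psmb10, H2-K1, H2-DMa and H2-DMb1, against 0.642% of all genes. Ifng was low, from 0.592 to 4.65 CPM under anti-PD-1 and from 0.387 to 1.97 CPM under IgG2a.

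Anti-PD-1 against IgG2a changed 0 of the 31 genes at an adjusted p under 0.05, and 0% of all genes tested passed. Of the 31 genes 0 had an unadjusted p under 0.05, while 1836 of 16154 genes did. DESeq2 called 4 genes in all, limma-voom 0, and neither called any of the 31. At an unadjusted p under 0.05, DESeq2 had 1759 genes and limma-voom 990. The log2 fold change was positive for 14 of 20 class I genes (median 0.08) and 8 of 11 class II genes (median 0.16). Over all genes 43.1% were positive and the median was -0.05. The groups overlapped for all 31 genes. Overlap was not counted over all genes tested, so it is not read as a trait of these genes.

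For the classical class I molecule the treatments differed by less than the spread between tumours. H2-K1 was at 897 to 1521 CPM under anti-PD-1 (median 1118) and 745 to 2204 under IgG2a (median 1057). H2-D1 was at 2348 to 3416 CPM (median 2847) and 2668 to 3249.6 (median 2999.8). B2m was at 1727 to 2664 CPM (median 1937) and 1458 to 2635 (median 1727). For B2m, 7 of 8 treated tumours exceeded the IgG2a median, and the highest tumours of both groups overlapped. The log2 fold changes were -0.04 ± 0.19 for H2-K1 (95% interval -0.45 to 0.37), -0.05 ± 0.09 for H2-D1 (-0.24 to 0.14) and 0.13 ± 0.13 for B2m (-0.15 to 0.42). Without the 3 tumours H2-K1 turned to 0.17 ± 0.14, B2m was at 0.23 ± 0.09 and Nlrc5 at -0.31 ± 0.11 (adjusted p = 0.276 for the latter 2). H2-Q7 and H2-T22 are non-classical heavy chains. H2-Q7 was at 50.1 to 154 CPM (median 73.6) and 38.8 to 152 (median 74.3), with a log2 fold change of 0.10 ± 0.28. H2-T22 was at 202 to 416 CPM (median 295) and 240.1 to 330.3 (median 285), with 0.07 ± 0.14. Neither group was higher in either gene beyond the spread between tumours.

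The genes with the smallest p were those of the interferon-inducible proteasome. Psme1 and Psme2 encode the PA28 activator of the proteasome, and Psmb8, Psmb9 and Psmb10 the catalytic subunits of the immunoproteasome. Psme1 was at 169.7 to 365 CPM under anti-PD-1 (median 194) and 139 to 213 under IgG2a (median 176), a log2 fold change of 0.31 ± 0.15 (unadjusted p = 0.0505, adjusted p = 0.434). Psmb10 was at 79.9 to 354 CPM (median 107) and 57.5 to 139 (median 93.4), with 0.56 ± 0.28. Psmb8 was at 148 to 448 CPM (median 182) and 126 to 204 (median 167), with 0.39 ± 0.20. The highest value of each was that of anti-PD-1 replicate 6. Psme2 was at 119.6 to 498 CPM (median 159.7) and 92.0 to 191 (median 132), with 0.51 ± 0.27. Psmb9 was at 93.0 to 289 CPM (median 109) and 67.0 to 151 (median 117), with 0.36 ± 0.23. More treated tumours than not exceeded the IgG2a median for Psmb8, Psmb10 and Psme2 (7 of 8 each) and Psme1 (6 of 8), and fewer did for Psmb9 (3 of 8). With the 3 tumours left out the log2 fold changes were 0.17 ± 0.09 for Psme1, 0.30 ± 0.17 for Psmb10, 0.13 ± 0.11 for Psmb8, 0.19 ± 0.13 for Psme2 and 0.12 ± 0.14 for Psmb9.

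Each immune subunit replaces a constitutive one, and the ratio of the 2 was set against the treatment in TPM. The ratio of Psmb8 to Psmb5 was 0.869 to 1.36 under anti-PD-1 (median 1.13) and 0.947 to 1.52 under IgG2a (median 1.11), with an exact permutation p of 0.541 (two-sided, on the log2 ratio). Psmb9 to Psmb6 was at 0.431 to 0.716 (median 0.518) and 0.359 to 0.651 (median 0.488), with an exact permutation p of 0.549. Psmb10 to Psmb7 was at 0.365 to 0.688 (median 0.431) and 0.293 to 0.875 (median 0.429), with an exact permutation p of 0.773. The adjusted p was 0.773 for all 3 ratios. With the 3 tumours left out the differences in log2 ratio were -0.01, 0.05 and 0.22, the last with an exact permutation p of 0.254. In anti-PD-1 replicate 6 the Psmb8 to Psmb5 ratio was the lowest of the 16, although its Psmb8 CPM was the highest. The constitutive subunits Psmb6 (log2 fold change 0.46 ± 0.22) and Psmb5 (0.44 ± 0.26) had estimates within the range of those of the immune subunits.

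The regulators had negative estimates, and the 2 subunits of the peptide transporter differed in theirs. Tap1 was at 240.1 to 378 CPM under anti-PD-1 (median 307) and 172 to 349 under IgG2a (median 322), with a log2 fold change of 0.02 ± 0.13 that was -0.09 ± 0.10 without the 3 tumours. Tap2 had 0.26 ± 0.19 (unadjusted p = 0.175 by edgeR), which was 0.04 ± 0.10 without the 3 tumours. Nlrc5 was at 60.2 to 147 CPM (median 117) and 81.7 to 184 (median 145), with -0.24 ± 0.19. The regulator exceeded its IgG2a median in 1 of 8 treated tumours. Ciita was at 3.27 to 11.7 CPM (median 5.14) and 2.17 to 19.6 (median 6.85), with -0.44 ± 0.43. On log2(TPM + 1) the Nlrc5 estimate was 0.03. Thus 0 of these 4 genes passed, and the sign of Nlrc5 depended on the scale. Tapbp, the tapasin gene, had a log2 fold change of 0.04 ± 0.12. In TPM it was at 199 to 535 (median 337) under anti-PD-1 and 305 to 634 (median 528) under IgG2a. By TPM 1 of 8 treated tumours exceeded the IgG2a median of Tapbp, and by CPM 3 of 8 did. The reason for this difference between the scales was not tested.

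The class II molecule varied too widely between tumours for a precise comparison. H2-Aa was at 48.0 to 334 CPM under anti-PD-1 (median 199.9) and 31.8 to 451 under IgG2a (median 164), with 0.07 ± 0.51. H2-Ab1 was at 52.1 to 488 CPM (median 238) and 36.4 to 418 (median 194), with 0.36 ± 0.52. H2-Eb1 was at 39.6 to 322 CPM (median 176) and 28.4 to 388 (median 140.1), with 0.11 ± 0.53. The 95% interval of H2-Aa, from -1.01 to 1.16, spans changes of more than 1 log2 unit in either direction. Cd74 was at 159.9 to 1374 CPM (median 667) and 109 to 1271 (median 554), with 0.30 ± 0.52. H2-DMa, of the peptide exchange factor, was at 14.8 to 59.2 CPM (median 29.7) and 7.84 to 45.3 (median 31.8), with 0.31 ± 0.36. The subunits of the H2-O inhibitor had negative estimates and few reads. H2-Oa was at 0.247 to 0.563 CPM (median 0.512) and 0.238 to 1.09 (median 0.479), with -0.41 ± 0.32. H2-Ob was at 0.342 to 1.58 CPM (median 0.609) and 0.295 to 1.87 (median 0.792), with -0.24 ± 0.43. With the 3 tumours left out the estimates were 0.23 ± 0.55 for H2-Aa, 0.25 ± 0.57 for H2-Eb1, 0.39 ± 0.56 for Cd74, -0.08 ± 0.33 for H2-Oa and -0.24 ± 0.44 for H2-Ob, and 0 of the class II genes passed.

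**Figure D5:**
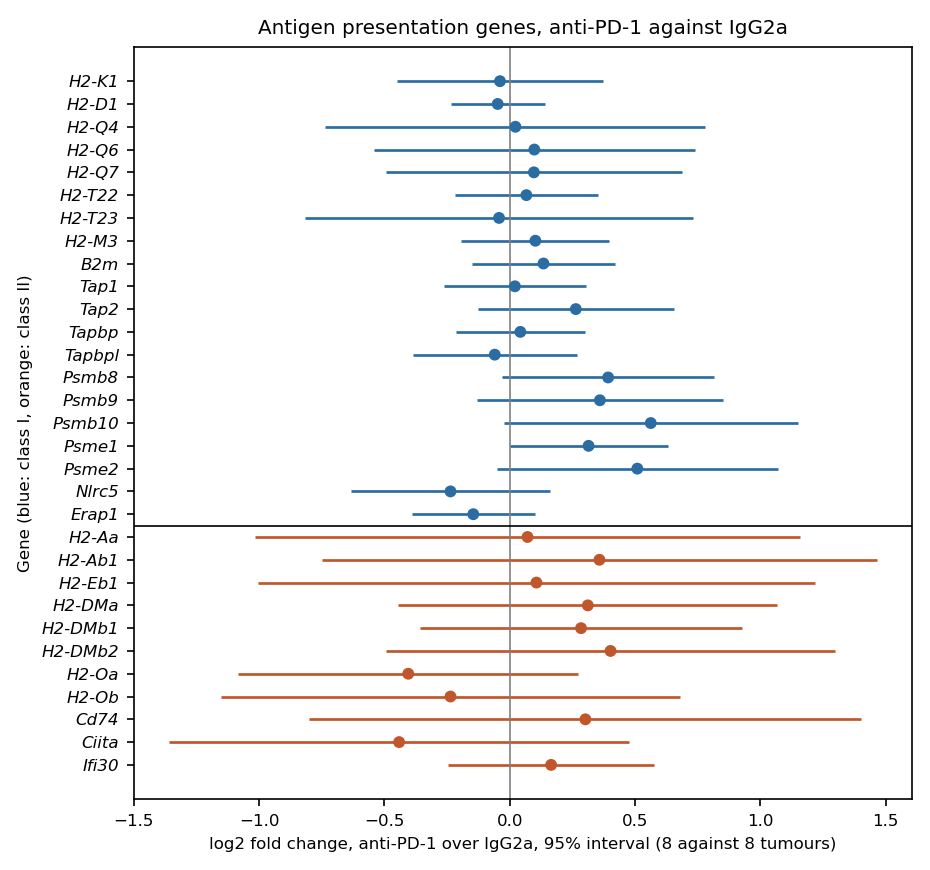
Log2 fold change of each gene, anti-PD-1 over IgG2a (x axis, 8 against 8 tumours), with its 95% interval, class I genes in blue above the line and class II genes in orange below it. Every interval includes 0, and the intervals of H2-Aa, H2-Ab1, H2-Eb1 and Cd74 are wider than those of H2-D1 or B2m.

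Other genes of the pathway were read from a list of 48, of which 44 were tested. With the treatment 0 of 44 passed. At an unadjusted p under 0.05 there were 2, the class I-like gene H2-T10 (0.31 ± 0.14) and Psmb6, against 1836 of 16154 genes. With the T cell index 0 of 44 passed, and without the 3 tumours that stood apart 12 did, against 11.6% of all genes. With the macrophage index 15 rose and 3 fell, and 18 of 44 is near the 39.7% called over all genes. Those that rose included 6 of 7 genes of lysosomal proteolysis, which supplies class II peptides, such as the cathepsin Ctss (1.01 ± 0.17), as well as Ifngr1, a chain of the interferon gamma receptor (0.84 ± 0.07), and Cd86, a costimulatory ligand (0.83 ± 0.07). The 3 that fell, Canx (-0.26 ± 0.07), Tpp2 (-0.44 ± 0.11) and Psme3 (-0.27 ± 0.09), were all from the 9 genes of class I loading and peptide supply. This did not hold without the 3 tumours that stood apart, where 13 of the 44 rose and 3 fell, against 17.6% of all genes called. Of lysosomal proteolysis 3 of 7 genes then rose (Lgmn, March1 and Ctss). Of loading and peptide supply only Tpp2 fell, and the other falls were 1 regulator and 1 MHC-like gene. With Ifng 1 of 44 passed, the interferon-induced factor Irf1 (0.27 ± 0.04, adjusted p = 0.0487). Of 18 regulators, 4 rose with the macrophage index (Ifngr1, Ifngr2, Jak2 and Irf8), near the 22.4% of all genes that rose, and Rfx5, Rfxank and Rfxap, of the complex that binds the X1 box, were not among them.

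Several members share sequence, and the deposited counts divide such reads. Of the 31-base words in the main transcript, 66.2% were also found in other genes for Psme2, 63.8% for H2-T22, 58.3% for H2-Q4, 51.7% for H2-Q6, 49.0% for H2-T23 and 45.6% for H2-DMb2, against 27.6% for H2-D1 and 23.3% for H2-K1. Psme2, H2-K1, H2-D1, the H2-Q and H2-T genes and the H2-DMb genes are therefore uncertain as single genes, while the heavy chain H2-M3 shared 4.62%. B2m, Nlrc5, Psmb10, H2-Aa, H2-DMa, H2-Ob and Ifi30 shared none. With families summed, the log2 fold change under anti-PD-1 was -0.05 ± 0.11 for H2-K1 with H2-D1, 0.07 ± 0.31 for H2-Q4, H2-Q6 and H2-Q7, and 0.03 ± 0.15 for H2-T22 with H2-T23. The last sum leaves out H2-T10, which holds 56.1% of the words of H2-T22, so it does not settle how those reads were divided. The libraries carry no strand and Tap1 and Psmb9 overlap, so reads from the overlap cannot be told apart. Transcript use varied for Nlrc5, where a transcript with a retained intron held 84.2% of its reads in anti-PD-1 replicate 6 and 6.32% in IgG2a replicate 4, the lowest. For Cd74 the share of the second most abundant protein-coding transcript stayed between 20.9% and 29.5%.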

How the data were processed

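Tumour RNA was enriched with oligo-dT and sequenced without strand, per the labels' protocols. Per the file headers, the deposited tables hold each transcript's estimated count of reads, divided between similar transcripts, and its TPM, scaled within each tumour by the authors. Transcript length and effective length are other deposited columns. GRCm38, edgeR and limma are named in the submitters' processing notes, and the quantifier is not given in the sources used here. Estimated counts were summed per gene by GENCODE vM21 (114200 of 115088 transcripts matched), rounded, filtered with filterByExpr (minimum count 10, minimum total 15), scaled with TMM factors and fitted with edgeR 4.0.16 in R 4.3.3 (robust quasi-likelihood, Benjamini-Hochberg adjustment over all genes tested, threshold 0.05). Cell indices are mean log2 CPM (prior count 2) of fixed markers, none of them a member, and slopes were fitted with the treatment as a term. For each gene, 31-base words of its main transcript were sought in all other genes.

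The 31 members, the gene lists and the tests were chosen with earlier results of these data known. Genes were named in the text by a written list of one or more members per role, and other pathway genes beyond the 3 of smallest p were named after their values were seen. The X1 to Y spacing, the division at the class II gap, the transcripts listed, the sequence sharing and the SDs without 3 tumours were chosen after the values were seen. Alternatives were DESeq2 1.42.0, limma-voom (limma 3.58.1), log2(TPM + 1) and log2(TPM + 0.1), filters, covariates, and leaving out each tumour. Libraries held 59036535 to 82591064 reads, and 25.4 to 38.6% of transcripts had values that were not whole. No pair of tumours in a group agreed within sampling noise. Tumours are separate animals. The fits were tested on simulated data.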

Additional observations from a re-analysis of the deposited data

Results flagged for a closer look

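In 6 of 62 sets of 8 tumours tested (9.68%), 1 gene in 1 treatment group each, a single tumour lay apart from the other 7 by more than Dixon's limit, which chance alone exceeds in about 1 in 20 sets. In 5 of them that tumour was anti-PD-1 replicate 6. It was high in Tap2 (9.05 log2 CPM), a subunit of the peptide transporter, in the immunoproteasome subunit Psmb8 (8.81), and in the proteasome activator subunits Psme1 (8.51) and Psme2 (8.96). It was low in the peptide-trimming enzyme Erap1 (5.84). The remaining one was Tap1, which was low in IgG2a replicate 7 at 7.43 log2 CPM, the tumour with the highest macrophage and erythroid indices. The share of such sets over all genes was not computed, and the sets share the same tumours. No excess over chance is therefore read from this count. The library of anti-PD-1 replicate 6 showed the fewest transcripts above 0.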

How the results depend on the processing

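No paired analysis was possible because the tumours are from separate animals and the replicate numbers only follow accession order. The 0 members called for treatment and for the interaction kept to 0 in every alternative run for them. Counts of members called were 12 to 16 for the macrophage index and 12 to 15 for the dendritic cell index when each tumour was left out. The calls over all genes moved far more. They ran from 1168 of 16283 (without IgG2a replicate 7) to 7676 of 16361 (without anti-PD-1 replicate 6) for the macrophage index. For the dendritic cell index the same 2 runs gave 622 of 16284 and 3889 of 16362. Members called were 0 to 13 for the T cell index and 0 to 1 for Ifng, with IgG2a replicate 7 giving the highest. Without that tumour 447 of 16277 and 17 of 16292 of all genes were called. Without the 3 tumours that stood apart, 16 passed on the T cell index, 0 on the B cell index and 4 on Ifng, and the cause was not tested. Of 8 pairs, 7 passed in the report's setting, 4 on log2(TPM + 1) and 1 within anti-PD-1, where there are fewer tumours. On log2(TPM + 1) and log2(TPM + 0.1) the treatment estimate turned, among others, for Tap1 (-0.0970 and -0.0975), Nlrc5 (0.0326 and 0.0329), H2-Q7 (-0.0480 and -0.0489) and H2-T22 (-0.0803 and -0.0807), and r of Nlrc5 with H2-K1 turned to 0.0911. Tapbp, at 0.04 in the main fit, had TPM medians of 337 under anti-PD-1 and 528 under IgG2a. Without the 3 tumours the treatment estimate turned for H2-K1 (0.168), Tap1 (-0.0852), H2-T22 (-0.0281), H2-T23 (0.356), Tapbpl (0.0516) and Tapbp (-0.00562), and with limma-voom for H2-K1 (0.00372). The T cell slope turned with the other indices as covariates for B2m (-0.0445), Nlrc5 (0.144) and H2-Oa (-0.184), and for H2-T22 without the 3 tumours (-0.0499) or with the animal range (-0.00680). As CPM the Psmb9 to Psmb6 log2 difference was -0.0752. Leaving out each tumour, treatment estimates crossed 0 for H2-K1 (-0.116 to 0.140), Tap1 (-0.0665 to 0.0664), H2-Q7 (-0.0727 to 0.288), H2-Aa (-0.0902 to 0.406), H2-Eb1 (-0.0877 to 0.438) and H2-T22 (-0.0120 to 0.134), and the Psmb10 to Psmb7 log2 difference ran from -0.0246 to 0.201. T cell slopes crossed 0 for H2-D1 (-0.000785 to 0.0571), B2m (-0.0482 to 0.108), Nlrc5 (-0.112 to 0.0348) and H2-T22 (-0.0258 to 0.0915). None of these single-gene estimates passed. The share of Ciita promoters was not run, since the tables hold 1 Ciita transcript. Low counts limit H2-Oa and H2-Ob.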
